A study of Mus musculus with 12 samples.

Results

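The genes described here encode the proteins that carry glucose into the cell and break it down: glucose transporters, the enzymes of glycolysis and of the pentose phosphate pathway, lactate dehydrogenase and the lactate exporters, and the proteins that admit pyruvate to the mitochondrion. The 34 gene symbols were taken as a list of the pathway and matched to the Ensembl gene identifiers of the deposited mouse expression matrix. All 34 were found, on 35 of the 54104 Ensembl identifiers, because 2 identifiers carry the symbol Aldoa. Identifiers were read in all 12 libraries.

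The study compared the expression of myeloid-derived suppressor cells (MDSCs), immature myeloid cells that accumulate in tumor-bearing animals, between the spleen and the tumor of mice. Its design names a polymorphonuclear and a monocytic type, for which Ly6G and Ly6C are the usual surface markers. Total RNA had been sequenced from 4 groups of 3 libraries each, labelled by one of these markers and by tissue: Ly6C from spleen, Ly6C from tumor, Ly6G from spleen and Ly6G from tumor. A MAPK pathway inhibitor is named in the title of the series, but no label assigns it to a library. Strain, age, tumor model, treatment and sorting gate are not given in the labels, which also do not say whether the 3 libraries of a group came from separate animals, so the p-values measure only the spread between these libraries. The values are FPKM, in which the fragments of a gene are divided by its length and by the size of the library, so that levels can be compared between genes. The file holds no fragment counts, so the depth behind a value is unknown and no interval for counting error is given. Values are per gene, so that splice forms such as those that distinguish the M1 and M2 forms of pyruvate kinase were not measured.

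Glycolysis converts glucose to pyruvate and yields ATP, and its intermediates feed biosynthesis. Glucose 6-phosphate can instead enter the pentose phosphate pathway, whose oxidative branch makes NADPH, the cofactor that phagocytes use for the oxidative burst and for glutathione recycling. Neutrophils and related myeloid cells are known to rely on glycolysis, and hypoxia-inducible factors and Myc are known activators of many glycolytic genes. Several steps are encoded by paralogs with different kinetics or tissue distribution, among them the hexokinases, the phosphofructokinases and the glucose transporters.

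The libraries of the 2 tissues differed far beyond these genes. Of all genes tested as described below, 46.2% rose and 30.5% fell from spleen to tumor in Ly6C, and 51.5% and 24.7% in Ly6G. Libraries summed to between 331681 and 449309 FPKM, and between 10379 and 12337 genes reached 1 FPKM. Between tumor and spleen, 19 of 20 genes of a pan-leukocyte list fell under either label; the exception was Plek (-0.65 in Ly6C and 0.72 in Ly6G, not called). The median of the list's summed FPKM was 6334 in Ly6C spleen, 624 in Ly6C tumor, 7778 in Ly6G spleen and 1308 in Ly6G tumor. All 15 neutrophil genes fell in both. The median of their summed FPKM was 86297 in Ly6C spleen and 161487 in Ly6G spleen, against 2278 in Ly6C tumor and 7371 in Ly6G tumor. For the monocyte list it was 1057 in Ly6C spleen, 716 in Ly6G spleen, 707 in Ly6C tumor and 1537 in Ly6G tumor. Ly6C and Ly6G are therefore used here as labels of groups, not as cell types. Of 14 monocyte genes 10 fell and 1 rose in Ly6C, and 6 fell and 3 rose in Ly6G, and of 10 macrophage genes 4 and 7 fell. Mitochondrial transcripts held between 1.44% and 11.3% of the FPKM of a library, and of 13 such genes 10 rose in Ly6C and 6 in Ly6G. Of 9 epithelial genes, the keratin genes Krt8 and Krt18 were the only ones tested and both rose, and the list summed to between 0.548 and 1.89 FPKM in the spleen libraries and between 446 and 1020 FPKM in the tumor libraries. Krt8 averaged 670 ± 96.9 FPKM (SD, n = 3) in Ly6C tumor and 483 ± 113 in Ly6G tumor. Of 8 tested fibroblast genes, 5 rose in Ly6C and 7 in Ly6G. Of the 2 tested endothelial genes, Pecam1 fell in both and Cdh5 rose in Ly6G. The B cell genes (8 of 8), T or NK cell genes (5 of 5 tested) and erythroid genes (7 of 7 tested) fell in both. Ly6g averaged 166 ± 40 FPKM in the Ly6C libraries of the spleen and 651 ± 63.6 in the Ly6G libraries, against 13 ± 1.03 and 39.1 ± 13 in the tumor groups. Ly6c2 averaged 247 ± 24.8 FPKM in the Ly6C libraries of the spleen and 214 ± 38.6 in the Ly6G libraries, against 7.05 ± 0.976 and 6.69 ± 1.27 in tumor. These markers moved with every tissue difference given below, and their part in it was not tested. In such bulk samples, fewer cells of a type and less RNA per cell cannot be told apart.

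Promoters are shown for 4 members that the results turn on: Slc2a1 and Hk2, which were higher in tumor under both labels, and Hk3 and G6pdx, which were lower. Each window holds the 250 bases before a RefSeq start site (build GRCm38.p6), written 5′ to 3′ on the strand of the gene. RefSeq starts can lie inside the gene as GENCODE bounds it, as for Slc2a1 and G6pdx. Capitals mark ACGTG and GCGTG, the core of the hypoxia response element, and GAGGAA, a core recognised by the myeloid factor PU.1, all searched on both strands.
Slc2a1 promoter, chr4:119108495-119108744, plus strand: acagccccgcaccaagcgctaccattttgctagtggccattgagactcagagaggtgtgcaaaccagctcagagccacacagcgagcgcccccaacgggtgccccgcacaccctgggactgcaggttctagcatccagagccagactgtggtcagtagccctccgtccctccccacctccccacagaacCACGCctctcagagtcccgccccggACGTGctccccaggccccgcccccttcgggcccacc
Hk2 promoter, chr6:82774455-82774704, minus strand: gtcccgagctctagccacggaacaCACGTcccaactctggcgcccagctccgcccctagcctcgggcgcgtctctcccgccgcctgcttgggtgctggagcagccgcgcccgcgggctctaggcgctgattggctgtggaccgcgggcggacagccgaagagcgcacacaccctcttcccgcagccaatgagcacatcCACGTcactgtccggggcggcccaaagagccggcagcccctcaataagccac
Hk3 promoter, chr13:55021386-55021635, minus strand: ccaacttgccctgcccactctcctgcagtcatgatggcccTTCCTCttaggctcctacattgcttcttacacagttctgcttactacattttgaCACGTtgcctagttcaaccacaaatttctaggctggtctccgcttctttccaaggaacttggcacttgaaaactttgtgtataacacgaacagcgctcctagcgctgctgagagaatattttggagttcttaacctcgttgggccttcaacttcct
G6pdx promoter, chrX:74428881-74429130, minus strand: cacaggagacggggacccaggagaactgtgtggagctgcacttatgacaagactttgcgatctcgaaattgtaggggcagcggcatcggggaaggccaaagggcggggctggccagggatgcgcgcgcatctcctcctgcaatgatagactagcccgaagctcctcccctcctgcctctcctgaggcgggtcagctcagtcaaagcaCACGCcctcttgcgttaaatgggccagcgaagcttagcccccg
The windows of Slc2a1 and Hk2 each held 2 matches to the hypoxia core, and those of Hk3 and G6pdx 1 each. The PU.1 core occurred in the window of Hk3 and in none of the other 3. Over the members, 33 of 34 had a window (Slc2a3 had none), and 30 of these 33 genes (90.9%) held ACGTG or GCGTG, against 41.5% of the 27025 genes with a window. A gene counted if any of its windows held a match. The 33 members had 48 windows and the 27025 genes 32851, so members had more windows per gene in which to match. ACGTG alone was found in 13 of 33 (39.4%, against 18.5% of all genes) and GCGTG in 24 (72.7%, against 30.9%). The full E-box CACGTG, which contains ACGTG and is bound by Myc and its partners, was in 4 members (Ldha, Pfkfb3, Pfkm and Slc16a1; 12.1%, against 6.86%), and GAGGAA in 9 (27.3%, against 25.9%). For 41 of the 48 windows of members the start region was found in a transcript of the gene. It was not found for the windows that held the CACGTG of Ldha and Slc16a1. Members' windows were richer in G and C (median 60.8%) than all windows (52.4%). These matches describe sequence only, and members that were higher and members that were lower in tumor both held the hypoxia core.

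Differences were tested with limma on log2(FPKM + 1), a scale on which the change of low genes is understated, and a gene was called at a Benjamini-Hochberg adjusted p under 0.05 over the 13610 genes that reached 1 FPKM in 3 or more libraries. Changes are tumor minus spleen on this scale, with their standard error (SE). Of the 35 identifiers, 34 were tested, and Eno2 was below the filter. In Ly6C, 16 of the 34 were higher in tumor and 11 lower, where 46.2% of all genes tested were higher and 30.5% lower. In Ly6G, 18 were higher and 8 lower, where 51.5% of all genes were higher and 24.7% lower. The members' median change was 0.37 in either label, against 0.27 (Ly6C) and 0.43 (Ly6G) over all genes. The counts therefore lay near the background, and what follows is about which members moved and which way. Under both labels 14 identifiers rose and 8 fell, 1 (Hk1) moved in opposite directions, and 4 (Aldoa, Slc16a3, Pdhb and Mpc1) were called in neither. Joint shares over all genes were not computed, so these 4 counts only sort the members and describe no trait of the pathway.

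Direction depends on how libraries are put on a common scale, so each call was repeated under 4 other scalings: equal library sums, median-of-ratios factors, quantile normalization, and equal sums without S100a8 and S100a9. These put the median change of all genes between -0.03 and 0.68, from 0.27 and 0.43. Of all genes called, 60.2% were higher in tumor in Ly6C and 67.6% in Ly6G as deposited, against 51.1% in both under median-of-ratios factors. A member said below to have risen or fallen between tissues passed in the same direction under all 4 unless the sentence says otherwise. That holds in both labels for 10 of the 14 risen identifiers and for all 8 that fell. The share of all called genes for which it holds was not computed, so these counts only sort the members. One more scaling, which held the pan-leukocyte genes level between libraries, put the median of all genes at 3.05 (Ly6C) and 2.15 (Ly6G). It put every member that fell above 0 except Hk3 in both labels and G6pdx in Ly6G. In Ly6C these positive values passed for all but G6pdx, and in Ly6G for Slc2a3 and Pfkfb4, while Pgd, Tkt, Taldo1 and Mpc2 showed no called change there (adjusted p from 0.198 to 0.456). Each fall below is therefore relative to all RNA of the library. Only those of Hk3 in Ly6C and of G6pdx in Ly6G were also called as falls under the pan-leukocyte scaling.

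**Figure D1:**
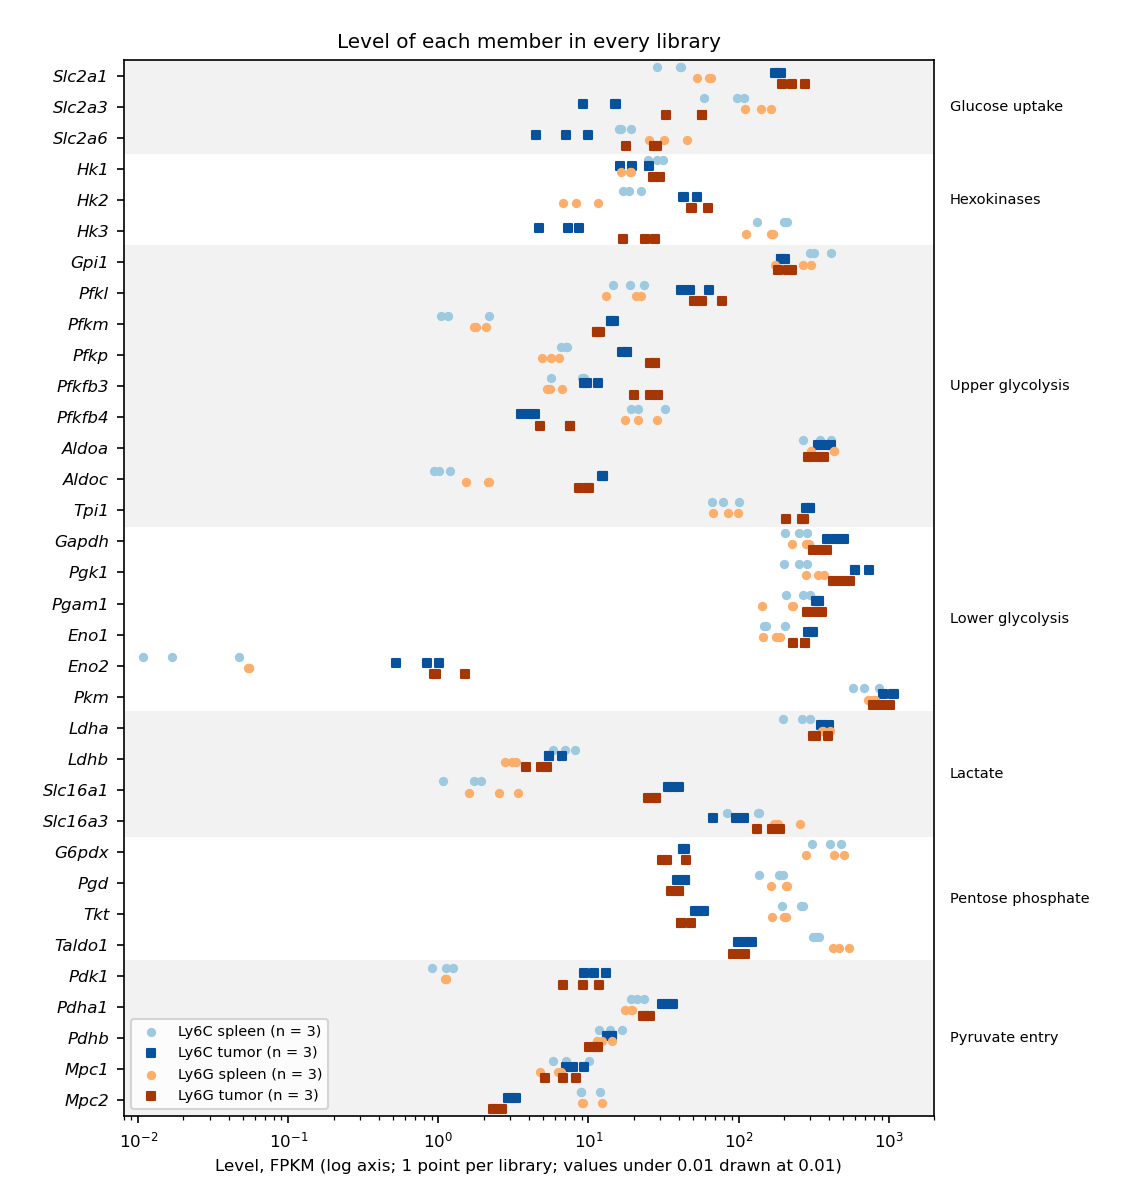
Deposited level of each of the 34 genes in every library, in FPKM on a log axis, ordered by role; each point is 1 library and each group has 3, and the second identifier of Aldoa is left out. As deposited, the pentose phosphate genes sit to the right in spleen (136 to 542 FPKM) and to the left in tumor (30.9 to 124 FPKM), while Slc2a1, Hk2, Pfkm, Aldoc, Slc16a1 and Pdk1 run the other way.

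Among the 3 glucose transporters of the list, the most abundant transcript differed between the tissues. Slc2a1 (ENSMUSG00000028645, chromosome 4, 119108711 to 119137983, plus strand, GRCm38) encodes GLUT1, the widely expressed transporter of basal uptake. Its libraries stood at 40.6, 28.6 and 41.3 FPKM in Ly6C spleen and at 182, 175 and 191 in Ly6C tumor, and at 52.9, 63.4 and 65.7 in Ly6G spleen and 226, 194 and 275 in Ly6G tumor. The tissues did not overlap under either label. Slc2a1 rose by 2.30 ± 0.17 (SE) in Ly6C and 1.91 ± 0.17 in Ly6G (limma adjusted p = 1.7e-07 and 9.2e-07). Slc2a3 encodes GLUT3, a transporter of high affinity found in neurons and leukocytes. It measured 97.9, 59.3 and 108 FPKM in Ly6C spleen and 14.9, 9.19 and 15.2 in Ly6C tumor, and 141, 166 and 111 in Ly6G spleen and 33.0, 57.1 and 57.2 in Ly6G tumor. Again no library of one tissue reached the range of the other, and Slc2a3 fell by 2.65 ± 0.29 on the log2 scale in Ly6C and by 1.51 ± 0.29 in Ly6G. Slc2a6, which encodes GLUT6, a transporter of intracellular membranes in macrophages, fell in Ly6C by 1.20 ± 0.27, from 17.2 ± 1.78 to 7.19 ± 2.71 FPKM (SD, n = 3). In Ly6G its tissues overlapped, at 34.3 ± 10.2 and 24.6 ± 6.01 FPKM, and the change of -0.45 ± 0.27 did not pass (adjusted p = 0.15).

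Shares within a library do not depend on how that library is scaled, and they were used to compare paralogs between tissues. They do depend on the mix of cells in a library. The part of the cell type markers above in the shares was not tested. Each share is the FPKM of a paralog as percent of the family's members listed, given as mean ± SD over 3 libraries and without a test, since 3 values against 3 cannot give an exact two-sided permutation p under 0.1. Slc2a1 made up 25.9 ± 0.942% of the FPKM of the 3 transporters in Ly6C spleen and 90.1 ± 2.43% in Ly6C tumor, and 26 ± 3.12% in Ly6G spleen and 75.8 ± 6.18% in Ly6G tumor. Slc2a3 went from 61.3 ± 5.26% to 6.40 ± 1.33% in Ly6C and from 59.2 ± 8.08% to 16.1 ± 4.23% in Ly6G. In every spleen library Slc2a3 exceeded Slc2a1, and in every tumor library the order was the reverse.

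**Figure D2:**
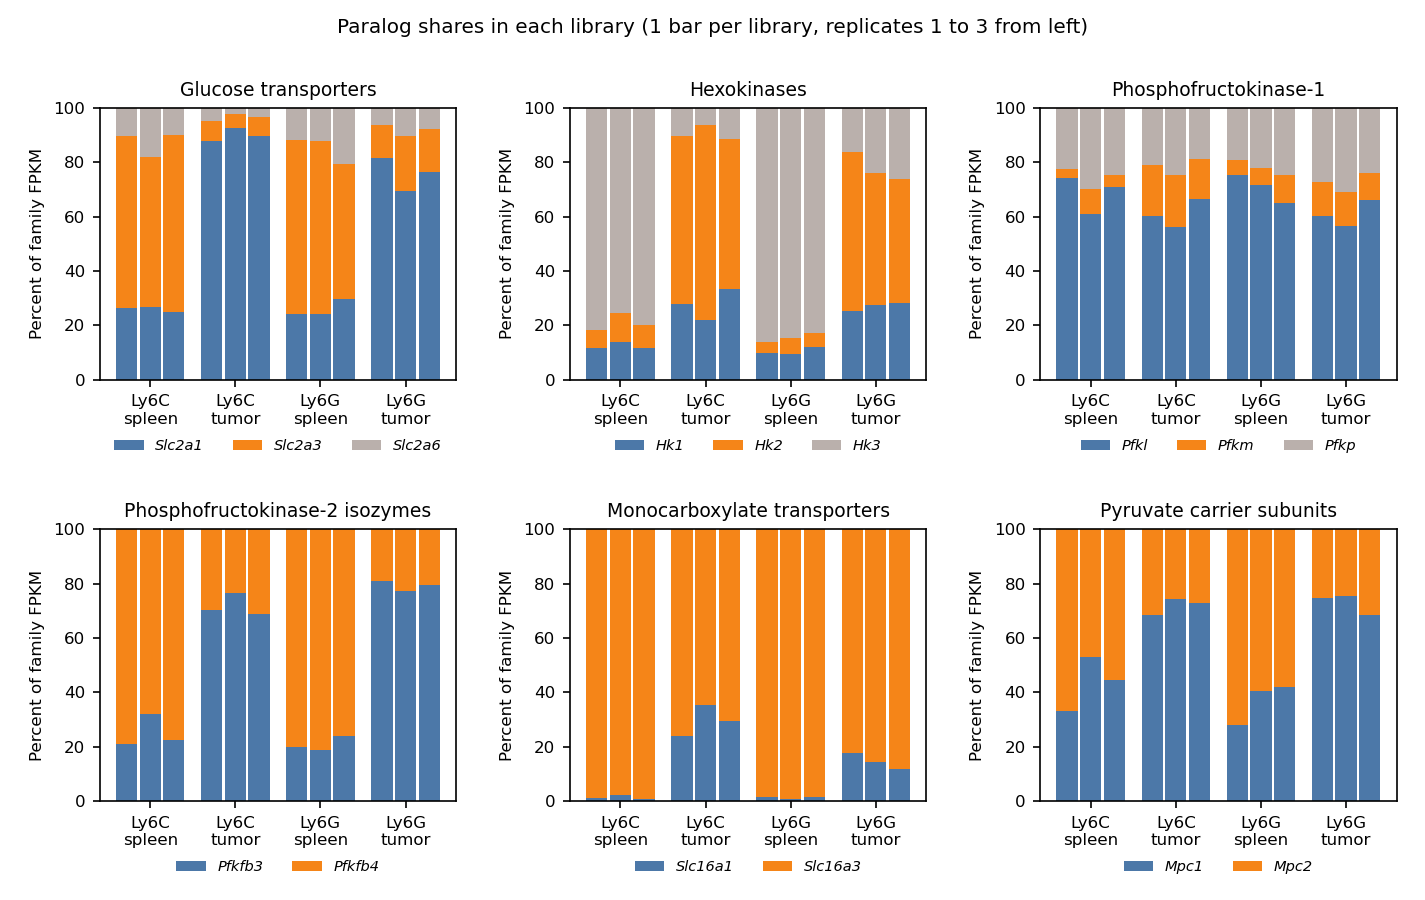
Share of each paralog in the summed FPKM of its family, in percent, with 1 bar for each of the 12 libraries (3 per group). Hexokinase, glucose transporter and phosphofructokinase-2 shares change order between spleen and tumor in every library, while Pfkl remains the largest share of phosphofructokinase-1 throughout.

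Hexokinases phosphorylate glucose and so trap it in the cell. Hk3 (ENSMUSG00000025877, chromosome 13, 55005985 to 55021385, minus strand), the isozyme typical of myeloid cells, gave the largest fall of any member in Ly6C. Its libraries measured 202, 134 and 211 FPKM in Ly6C spleen and 7.32, 4.71 and 8.59 in Ly6C tumor, and 166, 169 and 113 in Ly6G spleen and 17.1, 23.7 and 27.8 in Ly6G tumor. The spleen libraries all lay far above those of the tumor. Hk3 fell by 4.55 ± 0.26 in Ly6C and by 2.66 ± 0.26 in Ly6G (limma adjusted p = 1.8e-08 and 1.8e-06), and the 2 falls differed by 1.89 ± 0.36 (interaction adjusted p = 0.0049), a call lost under the pan-leukocyte scaling (-0.98, adjusted p = 0.0908). Scaled to the pan-leukocyte genes, Hk3 was still lower in Ly6C, at -1.11, and at -0.13 in Ly6G it was not called.

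Hk2 (ENSMUSG00000000628, chromosome 6, 82725025 to 82774454, minus strand) encodes the inducible isozyme that binds mitochondria. It measured 17, 18.6 and 22.5 FPKM in Ly6C spleen and 43, 52.7 and 42.4 in Ly6C tumor, and 8.26, 11.5 and 6.72 in Ly6G spleen and 62.5, 48.4 and 48.7 in Ly6G tumor. Tumor libraries were higher without overlap. The rise was 1.21 ± 0.19 in Ly6C and 2.48 ± 0.19 in Ly6G, a difference of -1.27 ± 0.26 (Ly6C minus Ly6G, adjusted p = 0.0067) that went to -0.089 under the pan-leukocyte scaling (adjusted p = 0.896). The labels differed in spleen, where Hk2 was higher in Ly6C by 1.07 ± 0.19, and overlapped in tumor. Hk1 encodes the housekeeping isozyme, and its changes were small and opposite. It measured 28.7, 24.8 and 31.2 FPKM in Ly6C spleen and 19.5, 16.2 and 25.4 in Ly6C tumor, where the ranges overlapped, and 18.8, 19.1 and 16.6 in Ly6G spleen and 27.1, 27.1 and 29.9 in Ly6G tumor, where they did not. It fell by 0.47 ± 0.15 in Ly6C, a call lost without Ly6C spleen replicate 3 (adjusted p = 0.052) or Ly6C tumor replicate 2 (0.067). In Ly6G it rose by 0.60 ± 0.15, a call that did not pass under all 4 scalings. Within the hexokinases, Hk3 made up 78.9 ± 3.12% of FPKM in Ly6C spleen and 9.37 ± 2.60% in Ly6C tumor, and 84.5 ± 1.54% and 22 ± 5.30% in Ly6G. Hk2 took 8.62 ± 1.82% and 62.9 ± 8.08% in Ly6C, and 5.0 ± 0.743% and 51.1 ± 6.70% in Ly6G. Hk1 also took a larger share in tumor, 27.7 ± 5.59% in Ly6C and 26.9 ± 1.40% in Ly6G, against 12.5 ± 1.36% and 10.5 ± 1.45% in spleen.

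Gpi1, whose enzyme turns glucose 6-phosphate into fructose 6-phosphate at the fork with the pentose phosphate pathway, fell in Ly6C from 345 ± 61.1 to 196 ± 6.55 FPKM (-0.80 ± 0.20). In Ly6G it overlapped between tissues at 250 ± 67.2 and 208 ± 23.7 FPKM, and its change of -0.23 did not pass, except with array weights (-0.37, adjusted p = 0.0384) or without Ly6G spleen replicate 3 (adjusted p = 0.0253). The 3 subunits of phosphofructokinase-1, the committed step of glycolysis, rose under both labels without overlap of tissues. Pfkl, the liver-type subunit, went from 19.1 ± 4.47 to 51.0 ± 11.6 FPKM in Ly6C and from 18.7 ± 4.96 to 61.7 ± 13.7 in Ly6G. Pfkm, the muscle-type subunit, was low in spleen at 1.05, 2.17 and 1.15 FPKM in Ly6C and 1.73, 1.79 and 2.07 in Ly6G. Its tumor libraries stood close together at 14.7, 14.1 and 14.1 FPKM in Ly6C and 11.9, 11.3 and 11.4 in Ly6G, rises of 2.67 ± 0.15 and 2.13 ± 0.15. Pfkp, the platelet-type subunit, rose by 1.23 ± 0.10 in Ly6C (6.96 ± 0.357 to 17.6 ± 0.840 FPKM) and by 2.09 ± 0.10 in Ly6G (5.65 ± 0.734 to 27.2 ± 1.15 FPKM), and the rises differed by -0.86 ± 0.15 (adjusted p = 0.0028). That difference turned to 0.24 under the pan-leukocyte scaling. Pfkl kept the largest share of the family in every library, between 56.2% and 75.2%.

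The phosphofructokinase-2 isozymes set the level of fructose 2,6-bisphosphate, the activator of phosphofructokinase-1. Pfkfb3 encodes the isozyme with the strongest kinase activity. It measured 5.65, 9.02 and 9.39 FPKM in Ly6C spleen and 9.36, 11.5 and 9.78 in Ly6C tumor, ranges that overlapped, and the change of 0.34 ± 0.18 did not pass (adjusted p = 0.11). It did pass with the replicate block (adjusted p = 0.0454) and with array weights, which weight libraries by their spread (0.56, adjusted p = 0.00832). In Ly6G it measured 5.31, 6.62 and 5.58 FPKM in spleen and 20.2, 25.7 and 29.1 in tumor, with no overlap, a rise of 1.92 ± 0.18. The tissue effects differed by -1.58 ± 0.26 (adjusted p = 0.0023), and by -0.50 under the pan-leukocyte scaling (adjusted p = 0.412), and in tumor Pfkfb3 was lower in Ly6C than in Ly6G by 1.20 ± 0.18. Pfkfb4 fell in both labels, from 24.2 ± 7.05 to 3.99 ± 0.449 FPKM in Ly6C (-2.31 ± 0.23) and from 22.5 ± 5.48 to 6.63 ± 1.61 in Ly6G (-1.62 ± 0.23). Pfkfb3 thereby went from 25.2 ± 5.97% to 71.8 ± 4.09% of the pair in Ly6C and from 20.9 ± 2.74% to 79.2 ± 1.88% in Ly6G.

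Aldolase splits fructose 1,6-bisphosphate. Aldoa, among the 5 most abundant members in every group, overlapped between tissues in both labels, at 345 ± 72.3 and 378 ± 40.2 FPKM in Ly6C and 390 ± 75.1 and 330 ± 39.8 in Ly6G. Its change had a 95% interval of -0.28 to 0.58 in Ly6C and of -0.66 to 0.20 in Ly6G, where array weights gave a called fall (-0.37, adjusted p = 0.0412). The second identifier that carries the symbol Aldoa stood at 0.122 to 3.76 FPKM by group mean and rose in both labels. Aldoc, the brain-type aldolase, measured 1.01, 0.932 and 1.20 FPKM in Ly6C spleen and 12.3, 12.4 and 12.4 in Ly6C tumor, and 2.18, 2.14 and 1.53 in Ly6G spleen and 9.87, 10.1 and 8.69 in Ly6G tumor. It rose by 2.71 ± 0.11 and 1.84 ± 0.11, more in Ly6C by 0.87 ± 0.16 (adjusted p = 0.0041), yet remained at 3.20 ± 0.319% and 2.85 ± 0.529% of the aldolase pair in tumor. Tpi1, triose phosphate isomerase, measured 101, 66.8 and 78.7 FPKM in Ly6C spleen and 301, 299 and 282 in Ly6C tumor, and 98.5, 85.6 and 67.5 in Ly6G spleen and 266, 207 and 271 in Ly6G tumor. It rose by 1.85 ± 0.18 in Ly6C and 1.56 ± 0.18 in Ly6G.

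Rises in lower glycolysis, from glyceraldehyde 3-phosphate to pyruvate, were smaller and depended more on the scaling. Pgk1, phosphoglycerate kinase, the first step to yield ATP, measured 286, 201 and 251 FPKM in Ly6C spleen and 601, 743 and 597 in Ly6C tumor, a rise of 1.40 ± 0.18. In Ly6G it measured 369, 339 and 282 FPKM in spleen and 556, 479 and 428 in tumor. That rise of 0.56 ± 0.18 passed without overlap of tissues, did not pass under all 4 scalings and was lost without Ly6G tumor replicate 1 (adjusted p = 0.054). Gapdh, glyceraldehyde 3-phosphate dehydrogenase, stood at 247 ± 40.5 and 448 ± 59.0 FPKM in Ly6C and at 268 ± 36.5 and 355 ± 36.9 in Ly6G. Its changes of 0.86 ± 0.17 and 0.40 ± 0.17 (adjusted p = 0.00064 and 0.048) both failed under some scaling, and in Ly6G median-of-ratios factors turned it to -0.14. The Ly6G call was also lost (adjusted p from 0.0519 to 0.164) without any 1 of Ly6C spleen replicate 3, Ly6C tumor replicates 1 and 2, Ly6G spleen replicates 2 and 3, and Ly6G tumor replicates 1 and 3. Eno1, the main enolase, at 168 ± 31.3 and 303 ± 12.1 FPKM in Ly6C and 171 ± 23.5 and 262 ± 27.2 in Ly6G, rose by 0.86 ± 0.16 and 0.62 ± 0.16 as deposited, but not under all 4 scalings. Pgam1, phosphoglycerate mutase, passed in Ly6G (0.72 ± 0.20), again not under all 4 scalings, and not in Ly6C (0.41 ± 0.20), unless Ly6G spleen replicate 3 was left out (adjusted p = 0.0293). Eno2, the neuronal enolase, stood at 0.0169, 0.0469 and 0.0107 FPKM in Ly6C spleen and 0.839, 1.01 and 0.523 in Ly6C tumor, and at 0.0537 to 0.0547 in Ly6G spleen and 1.51, 0.931 and 0.957 in Ly6G tumor, and was not tested. Pkm, pyruvate kinase, had the highest mean FPKM of all members in every group, at 708 ± 144 and 1024 ± 88.2 FPKM in Ly6C and 774 ± 44.8 and 903 ± 119 in Ly6G. Its rise of 0.55 ± 0.17 in Ly6C turned to -0.20 under quantile normalization, and in Ly6G its tissues overlapped (0.22 ± 0.17).

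**Figure D3:**
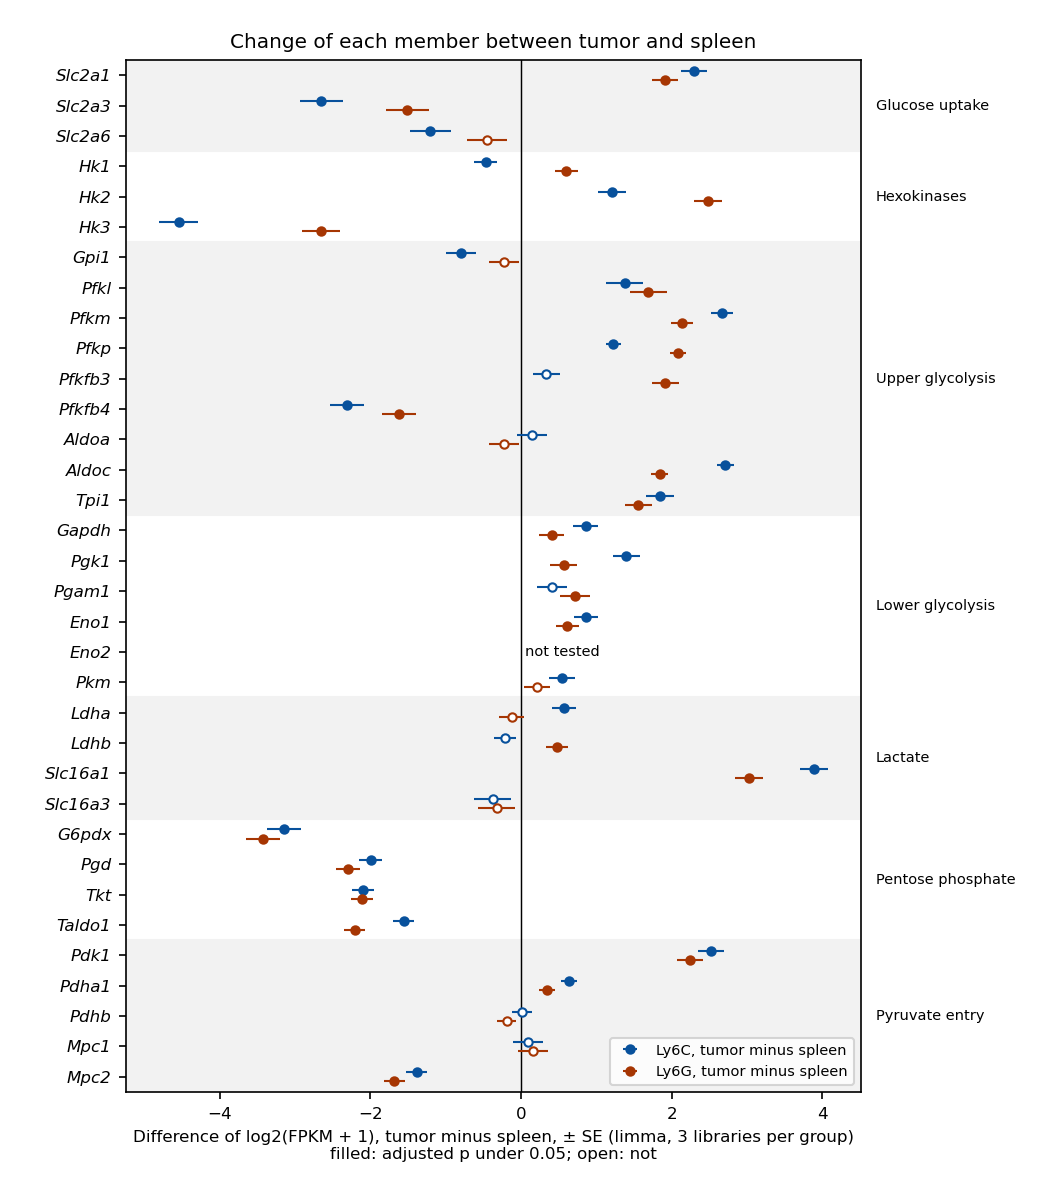
Difference of log2(FPKM + 1), tumor minus spleen, for each gene with its SE, Ly6C and Ly6G side by side (limma, 3 libraries per group); filled points had an adjusted p under 0.05. As deposited, the pentose phosphate genes lie between -3.43 and -1.56, and under the pan-leukocyte scaling they turned above 0 except G6pdx in Ly6G.

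Several of these enzymes have near-identical copies elsewhere in the genome, to which fragments could have been assigned. Copies were taken as loci at least 95% identical to the member's transcript over at least 80% of the copy. Gapdh had 84, of which 41 had a mean of at least 1 FPKM, and by an estimate from annotated exon lengths these copies held between 59.7% and 61.9% of the joint fragments by group. For Eno1 the share was between 32.1% and 35.6%, nearly all on Gm4735 and Eno1b. For Pgk1 it was between 6.12% and 7.67% and for Pgam1 between 5.08% and 6.67%. Mpc1, a subunit of the mitochondrial pyruvate carrier, stood at 5.84 to 8.11 FPKM by group mean, below its pseudogene Mpc1-ps at 39.3 to 86.8 FPKM for its copies summed. Levels and fold changes of these genes are therefore uncertain. Adding the copies' fragments to the member left every tissue call of the members as it was except that of Mpc1, which then passed in both labels (0.60, adjusted p = 0.0028, and 0.38, adjusted p = 0.034).

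**Figure D4:**
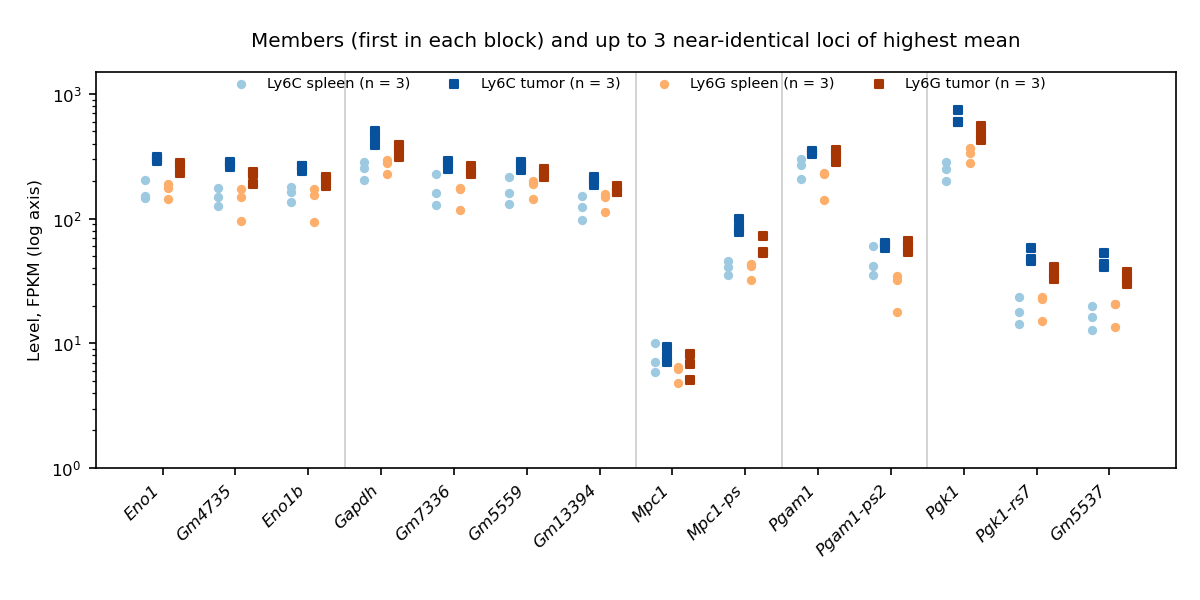
FPKM on a log axis in each library for 5 members (first name in each block) and for up to 3 of their near-identical loci with the highest mean. Loci related to Gapdh and Eno1 reach levels near those of the member, and Mpc1-ps lies above Mpc1 in every library.

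Lactate dehydrogenase regenerates the NAD+ that glycolysis consumes. Ldha, the subunit that favours lactate formation, stood at 254 ± 50.7 and 373 ± 24.9 FPKM in Ly6C and 376 ± 27.2 and 347 ± 43.9 in Ly6G. Its rise of 0.57 ± 0.16 in Ly6C turned to -0.0092 under quantile normalization, and its tissues overlapped in Ly6G. Ldhb, the heart-type subunit, was between 0.805% and 2.78% of the pair by group mean and passed in Ly6G (0.48 ± 0.14), where quantile normalization turned it to -0.045, and not in Ly6C (-0.21 ± 0.14). The lactate exporters parted. Slc16a1, which encodes the widely expressed transporter MCT1, measured 1.73, 1.93 and 1.08 FPKM in Ly6C spleen and 33.7, 36.7 and 39.9 in Ly6C tumor, and 2.53, 1.59 and 3.41 in Ly6G spleen and 28, 28 and 25 in Ly6G tumor. Its rises of 3.88 ± 0.19 and 3.03 ± 0.19 were the largest of any member in either label. Slc16a3, which encodes MCT4, the exporter of strongly glycolytic cells, overlapped between tissues at 119 ± 30.3 and 90.7 ± 21 FPKM in Ly6C and 204 ± 45.5 and 162 ± 28 in Ly6G, and passed in neither. In Ly6C it did pass as lower with array weights (-0.50, adjusted p = 0.0262) and without Ly6C spleen replicate 2 (-0.61, adjusted p = 0.035). Slc16a1 went from 1.43 ± 0.748% to 29.4 ± 5.75% of the pair in Ly6C and from 1.20 ± 0.248% to 14.6 ± 2.87% in Ly6G, so that Slc16a3 kept the larger share throughout.

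The 4 pentose phosphate enzymes of the list fell in both labels, where 30.5% (Ly6C) and 24.7% (Ly6G) of all genes tested fell. Their tissues did not overlap. The shares of all genes that fell in both labels or did not overlap were not computed. Under the pan-leukocyte scaling Pgd, Tkt and Taldo1 turned positive in both labels. G6pdx (ENSMUSG00000031400, chromosome X, 74409483 to 74429194, minus strand) encodes glucose 6-phosphate dehydrogenase, the first and rate-limiting step and a source of NADPH. It measured 405, 307 and 481 FPKM in Ly6C spleen and 44.0, 42.6 and 42.6 in Ly6C tumor, and 435, 503 and 282 in Ly6G spleen and 33.6, 44.4 and 30.9 in Ly6G tumor. In spleen it was the second most abundant member in Ly6C and the third in Ly6G. It fell by 3.15 ± 0.23 and by 3.43 ± 0.23 (limma adjusted p = 1.3e-07 and 7.6e-08). Under the pan-leukocyte scaling these became 0.42 in Ly6C and -0.87 in Ly6G. Pgd, 6-phosphogluconate dehydrogenase, the other source of NADPH in the pathway, fell by 2.0 ± 0.16 in Ly6C (173 ± 32.6 to 42.2 ± 3.07 FPKM) and by 2.30 ± 0.16 in Ly6G (194 ± 24.8 to 38.5 ± 2.80 FPKM). In the branch that returns sugars to glycolysis, Tkt, transketolase, fell by 2.10 ± 0.15 and by 2.11 ± 0.15, from 241 ± 40.8 to 54.9 ± 3.60 FPKM in Ly6C and from 191 ± 20.4 to 43.5 ± 3.94 in Ly6G. Taldo1, transaldolase, measured 344, 330 and 316 FPKM in Ly6C spleen and 113, 98.5 and 124 in Ly6C tumor, and 470, 424 and 542 in Ly6G spleen and 91.5, 110 and 106 in Ly6G tumor. It was the one of the 4 whose spleen levels differed between labels, lower in Ly6C by 0.53 ± 0.14 as deposited, though not under all 4 scalings.

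A ratio within each library set these falls against glycolysis. The 4 pentose phosphate genes made up 30.1 ± 1.75% (SD, n = 3) of their FPKM plus that of 16 glycolysis genes in Ly6C spleen, 6.22 ± 0.393% in Ly6C tumor, 32.4 ± 1.65% in Ly6G spleen and 6.27 ± 1.09% in Ly6G tumor. Single libraries ranged from 28.2% to 34.2% in spleen and from 5.54% to 7.53% in tumor. Multiplying a library by a factor does not change these shares. They do depend on the mix of cells, whose part was not tested. The labels overlapped in tumor. As deposited, the pentose phosphate sum went from 1141 ± 155 to 252 ± 18.4 FPKM in Ly6C and from 1271 ± 98.5 to 221 ± 20.6 in Ly6G. The glycolysis sum went from 2659 ± 446 to 3798 ± 35.4 in Ly6C and from 2672 ± 388 to 3333 ± 314 in Ly6G. In Ly6G its highest spleen library (2930) lay close to its lowest tumor library (2980). Unlike the shares, these sums depend on the scaling, and they were neither tested nor rescaled.

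**Figure D5:**
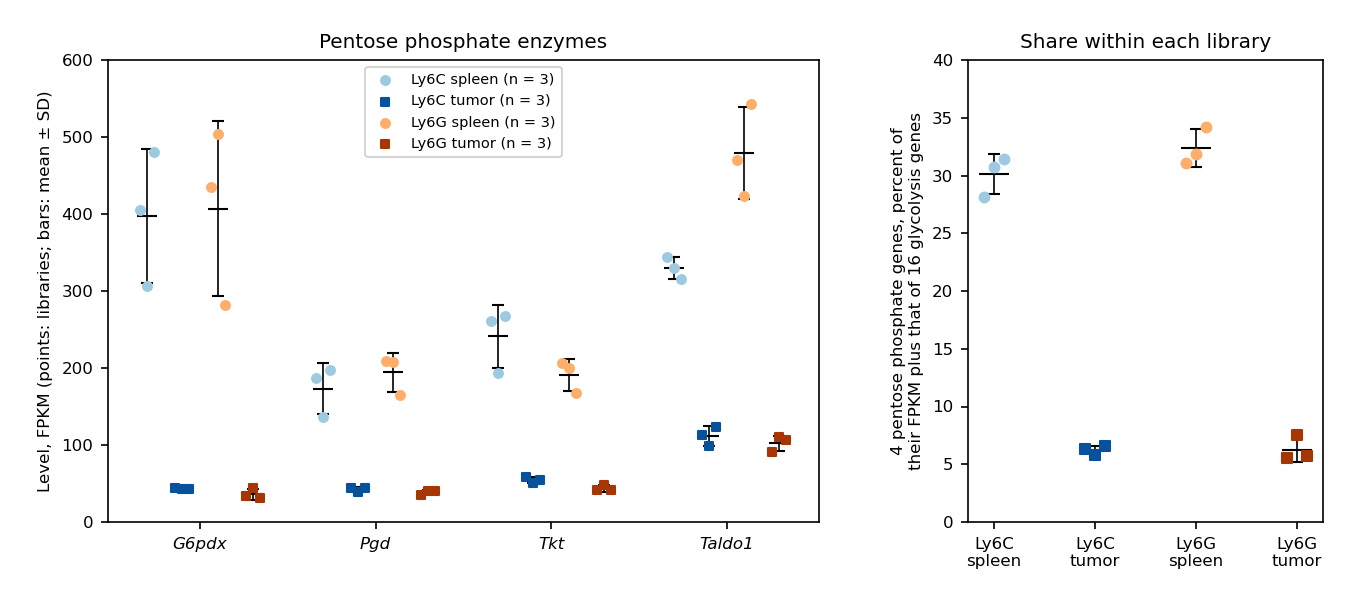
Left, FPKM of the 4 pentose phosphate genes in each library with group mean ± SD; right, these genes as percent of their FPKM plus that of 16 glycolysis genes. Every tumor library lies below every spleen library of the same label for each gene, and the share is between 28.2% and 34.2% in spleen and between 5.54% and 7.53% in tumor.

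Pyruvate enters the mitochondrion through a carrier made of Mpc1 and Mpc2 and is oxidised by pyruvate dehydrogenase, which the kinase Pdk1 switches off. Pdk1 measured 0.905, 1.13 and 1.25 FPKM in Ly6C spleen and 9.31, 13.1 and 10.9 in Ly6C tumor, and 1.11, 1.13 and 1.12 in Ly6G spleen and 11.8, 6.73 and 9.18 in Ly6G tumor. The tissues lay far apart, and Pdk1 rose by 2.52 ± 0.17 and 2.24 ± 0.17. Pdha1, a catalytic subunit of the dehydrogenase, went from 21.3 ± 2.12 to 33.6 ± 2.94 FPKM in Ly6C and from 18.8 ± 1.04 to 24.1 ± 1.31 in Ly6G. Its rises of 0.64 ± 0.11 and 0.34 ± 0.11 did not pass under all 4 scalings, and in Ly6G median-of-ratios factors turned the value to -0.18, and the call was lost without Ly6G tumor replicate 1 (adjusted p = 0.0501). Pdhb, the partner subunit, overlapped between tissues at 14 ± 2.47 and 14 ± 0.575 FPKM in Ly6C and 12.7 ± 1.44 and 10.9 ± 0.749 in Ly6G. Mpc2 measured 11.8, 8.88 and 8.86 FPKM in Ly6C spleen and 3.27, 3.21 and 2.93 in Ly6C tumor, and 12.3, 9.14 and 9.02 in Ly6G spleen and 2.31, 2.66 and 2.37 in Ly6G tumor. It fell by 1.38 ± 0.14 and by 1.68 ± 0.14. Mpc1, taken without its copies, overlapped between tissues in both labels, and Mpc2 went from 56.4 ± 10.1% to 28 ± 3.03% of the pair in Ly6C and from 63.2 ± 7.73% to 27.1 ± 3.91% in Ly6G, with the reservation on copies of Mpc1 given above.

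Between the labels in spleen, 4 of 34 were higher in Ly6C than in Ly6G (Hk1, Hk2, Ldhb and the second Aldoa identifier) and 6 lower (Slc2a1, Slc2a6, Aldoc, Ldha, Slc16a3 and Taldo1). Over all genes tested 22.1% were higher and 8.59% lower. All 8 B cell genes and 7 of 7 tested erythroid genes were also lower in Ly6C spleen. Of 14 monocyte genes 6 were higher and 1 lower, and of 15 neutrophil genes 1 was higher and 5 lower. The part of these marker genes in the differences was not tested. Under all 4 scalings Hk2, Ldhb and the second Aldoa identifier stayed higher and Aldoc lower, and under the pan-leukocyte scaling none of the 10 passed, nor any other member. Ldhb was higher in Ly6C by 0.97 ± 0.14, at 7.01, 8.12 and 5.77 FPKM against 3.10, 3.28 and 2.76, without overlap. Slc2a6, Ldha and Slc16a3 lost their calls without some of the spleen libraries (adjusted p up to 0.109): Slc2a6 without Ly6C spleen replicate 1 or 3 or Ly6G spleen replicate 3, Ldha without Ly6C spleen replicate 2 or Ly6G spleen replicate 1, and Slc16a3 without Ly6C spleen replicate 2 or Ly6G spleen replicate 1 or 3.

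In tumor, 1 member was higher in Ly6C (Pdha1) and 6 lower (Slc2a3, Slc2a6, Hk3, Pfkp, Pfkfb3 and Slc16a3), where 5.8% of all genes were higher and 8.7% lower. Pdha1 and Slc16a3 did not pass under all 4 scalings, and both lost the call without single libraries. For Pdha1 these were replicates 2 and 3 of either tumor group (adjusted p from 0.0581 to 0.0794). For Slc16a3 they were all 3 of Ly6C tumor, Ly6G tumor replicates 2 and 3 and Ly6G spleen replicate 1 (0.052 to 0.139). The other 5 were lower under all 4, but without both tumor libraries numbered 3 the calls of Slc2a6, Pfkp and Pfkfb3 were lost (adjusted p = 0.0623, 0.071 and 0.057). Hk3 was lower in Ly6C tumor by 1.61 ± 0.26, Slc2a3 by 1.82 ± 0.29 and Slc2a6 by 1.67 ± 0.27, each without overlap of the labels. Of the 20 pan-leukocyte genes, 16 were also lower in Ly6C tumor than in Ly6G tumor, as were 10 of 15 neutrophil genes and both tested endothelial genes, Cdh5 (-1.41 ± 0.42) and Pecam1 (-1.11 ± 0.28), and their part in these differences was not tested. Under the pan-leukocyte scaling Pfkp turned to 0.57 and Slc16a3 to 0.35, while Slc2a3 (-0.68), Slc2a6 (-0.60), Hk3 (-0.53) and Pfkfb3 (-0.072) lay below 0, of which Slc2a3 passed.

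The tissue effect itself differed between labels for 10 of the 34 identifiers, 4 higher in Ly6C (Aldoc, Pgk1, Slc16a1 and Taldo1) and 6 lower (Hk1, Hk2, Hk3, Pfkp, Pfkfb3 and Ldhb). Over all genes 6.02% were higher and 15.8% lower. All 3 hexokinases were among the lower members. Under the pan-leukocyte scaling none of the 6 lower members passed: Hk1 went to -0.01, Hk2 to -0.089, Hk3 to -0.98 and Pfkfb3 to -0.50, and Pfkp (0.24) and Ldhb (0.61) turned above 0. Aldoc and 5 of the 6 lower members, all but Ldhb, also passed under all 4 scalings. The other 4 lost the call when single libraries were left out, with adjusted p from 0.0503 to 0.0874. Slc16a1 lost it without any library but replicate 2 of Ly6C spleen and of Ly6G spleen, and Pgk1 without any but Ly6C spleen replicate 1, Ly6G spleen replicate 3 and Ly6G tumor replicate 1. Ldhb lost it without any but replicate 3 of Ly6C spleen and of Ly6C tumor, Ly6G spleen replicate 2 and Ly6G tumor replicate 1. Taldo1 lost it without any but Ly6C spleen replicates 1 and 2 and replicate 2 of the other 3 groups. Of the pan-leukocyte genes, 8 of 20 likewise had a lower tissue effect in Ly6C, and their part was not tested.

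Within groups, members varied most in Ly6C spleen, where the median coefficient of variation over members of at least 1 FPKM was 18.7%, against 8.77% in Ly6C tumor, 13.8% in Ly6G spleen and 12.9% in Ly6G tumor. Ly6C spleen replicate 2 held the lowest of the 3 values for 20 of 34 genes and Ly6G spleen replicate 3 for 24 of 34. Neither library's removal ended a tissue call among the members other than that of Gapdh in Ly6G, which was lost without Ly6G spleen replicate 3.

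Other genes of the pathway were taken from lists of 49 further glycolytic, pentose phosphate and pyruvate genes, 14 of glycogen metabolism, 7 of gluconeogenesis and 21 of regulators. As background for the counts of each list, 46.2% of all genes tested rose and 30.5% fell in Ly6C. In Ly6G these shares were 51.5% and 24.7%. Of 31 tested further pathway genes, 18 rose and 9 fell in Ly6C and 17 rose and 10 fell in Ly6G. The largest rise was that of Eno3, the muscle enolase, in Ly6C (2.57 ± 0.27, from 2.68 ± 1.29 to 20 ± 0.796 FPKM) and of Pcx, pyruvate carboxylase, in Ly6G (2.35 ± 0.16, from 0.802 ± 0.301 to 8.16 ± 1.15 FPKM). The largest fall in both was that of Adpgk, an ADP-dependent glucokinase, from 83.9 ± 28.5 to 3.68 ± 0.199 FPKM in Ly6C and from 65.6 ± 18.5 to 4.11 ± 0.444 in Ly6G (-4.13 ± 0.25 and -3.67 ± 0.25). Of 11 tested glycogen genes, 7 fell and 2 rose in Ly6C, and 5 fell and 2 rose in Ly6G, where 30.5% and 24.7% of all genes fell. The phosphorylases, which release glucose units from glycogen, also moved in opposite directions. Pygl, the liver-type form, went from 171 ± 46.9 to 6.59 ± 2.20 FPKM in Ly6C and from 246 ± 49.8 to 21 ± 5.81 in Ly6G, whereas Pygb, the brain-type form, went from 6.33 ± 2.50 to 29.7 ± 2.60 and from 3.73 ± 0.971 to 24.8 ± 2.18. Of 4 tested gluconeogenesis genes, 2 rose in Ly6C and 3 in Ly6G and none fell. Fbp2, the muscle-type fructose bisphosphatase, was listed at 0 in the Ly6C spleen libraries and averaged 7.04 ± 0.782 FPKM in Ly6C tumor.

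Of 17 tested regulators, 9 rose and 5 fell in Ly6C (46.2% and 30.5% of all genes), and 9 rose and 2 fell in Ly6G (51.5% and 24.7%). Myc, a transcription factor that activates many of the members, showed the largest rise, from 10.1 ± 3.15 to 273 ± 46.1 FPKM in Ly6C (4.64 ± 0.28) and from 12.1 ± 5.06 to 248 ± 58.8 in Ly6G (4.29 ± 0.28). Akt2, a kinase of insulin signalling, showed the largest fall (-1.17 ± 0.15 and -0.87 ± 0.15). Hif1a, the inducible subunit of the hypoxia factor, and Egln3, a prolyl hydroxylase that is itself a target of it, were picked after their values were seen. The other hypoxia factor genes of the list are not given here, so this pair does not stand for the list. Hif1a went from 7.55 ± 1.12 to 45.4 ± 6.77 FPKM in Ly6C and from 11.9 ± 5.71 to 45.5 ± 7.87 in Ly6G, and Egln3 from 8.54 ± 3.64 to 133 ± 13.1 and from 19.1 ± 2.47 to 146 ± 6.83. These list calls were made on the values as deposited, and other scalings were not applied to them.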

How the data were processed

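Total RNA from 12 mouse samples was sequenced in paired ends on an Illumina instrument, according to the labels' protocols. Alignment and counting tools in the submitters' processing notes are featureCounts 1.5.0-p3 and HISAT2 2.0.5, with build GRCm38. The authors deposited FPKM per gene and library; the software and annotation behind them were not given in the sources used here. FPKM are shares of a library, so a few very abundant genes lower all others, and fragments assigned to pseudogenes are lost to their parent genes. The 570 entries for assembled loci (0.463% to 1.04% of FPKM) were left out. Symbols and coordinates came from GENCODE M21, promoters from RefSeq (GRCm38.p6).

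With limma 3.58.1 (R 4.3.3), log2(FPKM + 1) of the 13610 genes that reached 1 FPKM in 3 or more libraries was fitted with a mean per group, with a variance trend and two-sided tests adjusted by Benjamini-Hochberg. The fit was also run on simulated normal values in which 200 genes were changed. Such values meet the assumptions of the model, so that run cannot show how the fit behaves on these libraries. Near-identical copies were found with BLAST 2.17.0 (at least 95% identity, 80% of the copy and 200 bases). Tables and figures used Python 3.11.15, pandas 2.3.3, numpy 2.4.6 and matplotlib 3.10.9. Named genes were all members and, of the other lists, the called gene with the largest rise and fall between tissues. Hif1a and Egln3 fell outside this rule and were added after their values were seen. The other hypoxia factor genes on the regulator list are not given here. The members and lists were chosen with earlier results of these data known. Alternatives were pseudocounts of 0.1 and 5, no filter or one at 5 FPKM, the 5 scalings, a replicate block, fits of 2 groups alone, array weights, a constant prior variance, 0.5 FPKM subtracted before shares, each library left out, and both tumor libraries numbered 3 left out. Adding the copies' fragments was chosen after seeing the data.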

Additional observations from a re-analysis of the deposited data

Results flagged for a closer look

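For 10 members the tissue effect (tumor minus spleen, log2 scale) differed between the labels by the interaction term of the limma model. It was lower in Ly6C than in Ly6G for Hk3 (-1.89), Pfkfb3 (-1.58), Hk2 (-1.27), Hk1 (-1.07), Pfkp (-0.86) and Ldhb (-0.69). It was higher in Ly6C for Aldoc (0.87), Slc16a1 (0.85), Pgk1 (0.84) and Taldo1 (0.65). Hk1 was lower in tumor in Ly6C, a call lost without Ly6C spleen replicate 3 (adjusted p = 0.0523) or Ly6C tumor replicate 2 (0.067), and higher in Ly6G, a call that did not pass under all 4 scalings. Under the pan-leukocyte scaling none of the 6 lower members was called: Hk3 went to -0.98 (adjusted p = 0.0908), Pfkfb3 to -0.50 (0.412), Hk2 to -0.089 (0.896) and Hk1 to -0.01 (0.986), and Pfkp turned to 0.24 and Ldhb to 0.61. The 4 higher members passed under it. Slc16a1, Pgk1, Ldhb and Taldo1 lost the call without single libraries (adjusted p from 0.0503 to 0.0874).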

How the results depend on the processing

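Between tissues, the members' calls mainly moved with the scaling. Under the pan-leukocyte scaling 32 members were higher and 1 lower in Ly6C, and 28 higher and 1 lower in Ly6G. In Ly6C it turned Slc2a3 (0.84), Slc2a6 (2.11), Hk1 (3.0), Gpi1 (2.79), Pfkfb4 (0.96), G6pdx (0.42), Pgd (1.57), Tkt (1.47), Taldo1 (2.03) and Mpc2 (1.71), and in Ly6G Slc2a3 (1.04), Pfkfb4 (0.73), Pgd (0.25), Tkt (0.44), Taldo1 (0.36) and Mpc2 (0.43). Median-of-ratios factors gave 11 higher and 14 lower in Ly6G and turned Gapdh (-0.14) and Pdha1 (-0.18). Quantile normalization turned Pkm (-0.20) and Ldha (-0.0092) in Ly6C and Ldhb (-0.045) in Ly6G. Of all genes called, 60.2% (Ly6C) and 67.6% (Ly6G) were higher as deposited, 51.1% in both under median-of-ratios factors, 50.0% and 49.7% under quantile normalization, 49.1% and 65.0% without S100a8 and S100a9, and 95.8% and 95.5% under the pan-leukocyte scaling. Leaving out each library in turn gave 16 to 17 higher and 10 to 12 lower in Ly6C and 15 to 18 higher and 8 to 9 lower in Ly6G. Gapdh in Ly6G also lost its call with no filter (adjusted p = 0.0816), 2 groups alone (0.0561) and array weights (0.0754).

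Of all genes called, the percent higher in Ly6C in spleen was 72.0 as deposited, 90.5 with equal sums, 82.4 without S100a8 and S100a9, 42.8 under median-of-ratios factors and 53.0 under quantile normalization. In tumor it was 40, and 7.0, 8.17, 40.2 and 51.2, and for the difference of tissue effects 27.6, and 5.75, 11.3, 54.1 and 51.9, in the same order. Among the members in spleen, equal library sums gave 12 higher and 1 lower, removal of S100a8 and S100a9 gave 7 higher, and the pan-leukocyte scaling 0 and 0. In tumor, members higher in Ly6C numbered 3 with pseudocount 5, 2 under quantile normalization, 5 with 2 groups at a time, 4 with array weights, 27 (and 1 lower) under the pan-leukocyte scaling, and 0 with equal sums, without S100a8 and S100a9 or without both tumor libraries numbered 3, which left 2 lower. Without single libraries the count was 0 to 2. The pan-leukocyte scaling turned Pfkp (0.57) and Slc16a3 (0.35). For the difference of tissue effects, members higher in Ly6C numbered 8 under median-of-ratios factors, 7 with array weights, and 1 with no filter, equal sums, removal of S100a8 and S100a9 or without both tumor libraries numbered 3, and 1 to 4 without single libraries. Members lower numbered 12 with equal sums and 0 under the pan-leukocyte scaling, which turned Pfkp (0.24) and Ldhb (0.61). The cause of these shifts was not tested.

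Replicate numbers are shared by the groups, but same-numbered libraries did not deviate together in all groups (correlations from -0.36 to 0.28). Correlations from groups of 3 cannot show whether same-numbered libraries share an animal or a batch. With the replicate block, 17 members were higher and 11 lower in Ly6C and 18 and 8 in Ly6G. Pfkfb3 then passed in Ly6C (adjusted p = 0.045) and Slc16a1 lost the interaction call (0.065), and no other call of a member changed. No other alternative turned the direction of a called member. Subtracting 0.5 FPKM moved 16 of 92 paralog shares by over 1 SD. With 3 libraries, leaving one out cannot move a mean by 1 SD, so it says nothing about the shares. Fragment counts are not in the file, so limits of depth were not computed.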
